A study of Sus scrofa with 2 samples.

Results

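Chemokines, interleukins and their receptors were compared between 1 brain library and 1 liver library of Rongchang pigs, a Chinese domestic breed. The genes were taken from the table of counts by the words of its product column. A row entered if its product named a C-C or C-X-C motif chemokine, a C-C or C-X-C chemokine receptor, or an interleukin. Of 94 such rows, those of other proteins that only share these words, such as receptor-associated kinases, were left out. This left 87 genes, each with 1 row, of the 21653 gene names in the table. Each name was counted as a gene, also where names share a product, as 3 IL1RAPL1-like and 3 interleukin-28 receptor rows do. By product they were 5 C-C ligands, 1 C-X-C ligand, 2 C-C receptors, 2 C-X-C receptors, 27 interleukins, 43 interleukin receptors or receptor-like chains, and 7 other genes whose product mentions an interleukin.

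The brain library was made from brain tissue and the liver library from liver tissue, both frozen in liquid nitrogen, with no treatment named in the labels. The labels give neither age nor sex nor brain region, and they do not say whether the tissues came from the same animal or from pooled animals. Total counts were 23796843 in brain and 31724498 in liver. With 1 library per tissue there is no replicate check and no test of any difference below. In whole tissue, fewer cells of a type and less RNA per cell cannot be told apart.

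Chemokines are small secreted proteins that guide leukocytes along concentration gradients through receptors coupled to G proteins. Interleukins are secreted signals between immune and tissue cells. Most act through receptors of several chains, in which a chain that binds the ligand joins a shared signalling chain. Liver is a target of interleukins in inflammation, when hepatocytes raise their output of plasma proteins, while several members of these families in brain act on glia or at synapses. The roles named here come mostly from work in human and mouse.

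Levels are given as counts or as counts per 1000000 after TMM scaling (CPM), where 1 CPM equals 35.0 counts in brain and 21.6 counts in liver. Differences are log2 ratios of CPM + 1, with brain over liver. Genes were compared where either tissue reached 1 CPM. Those with a log2 ratio of 2 or more were called higher in brain and those with -2 or less higher in liver, which is 4-fold. Folds of single genes are ratios of CPM without the added 1, with exact 95% intervals that cover counting error only. Counts were not corrected for transcript length, so sums and shares over several genes describe reads and do not order the genes by level.

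More of these genes were higher in liver than in brain. Of the 87 genes, 50 reached 1 CPM in either tissue. Of these, 4 were called higher in brain and 11 in liver, or 8% and 22% of the 50, while among all 15706 genes at that level 14.6% were called higher in brain and 11.3% in liver. Among the 4 brain calls, 2 are IL1RAPL1-like rows that may be parts of 1 gene, which was not tested. At 2-fold the calls were 10 in brain and 22 in liver, with 27.6% and 24.4% of all genes. At 8-fold they were 2 in brain and 8 in liver, with 8.54% and 5.7% of all genes. With plain library size in place of TMM, 6 genes were called in brain and 8 in liver, with 24.2% and 6.02% of all genes. The median log2 ratio of the 50 genes was -0.71, against 0.02 over all genes. The choice of scaling moves every ratio: with plain library size the median of all genes was 0.98 in place of 0.02, and that of these genes 0.13. Relative to the median of all genes, these genes lay at -0.73 with TMM and at -0.85 with plain library size.

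**Figure D1:**
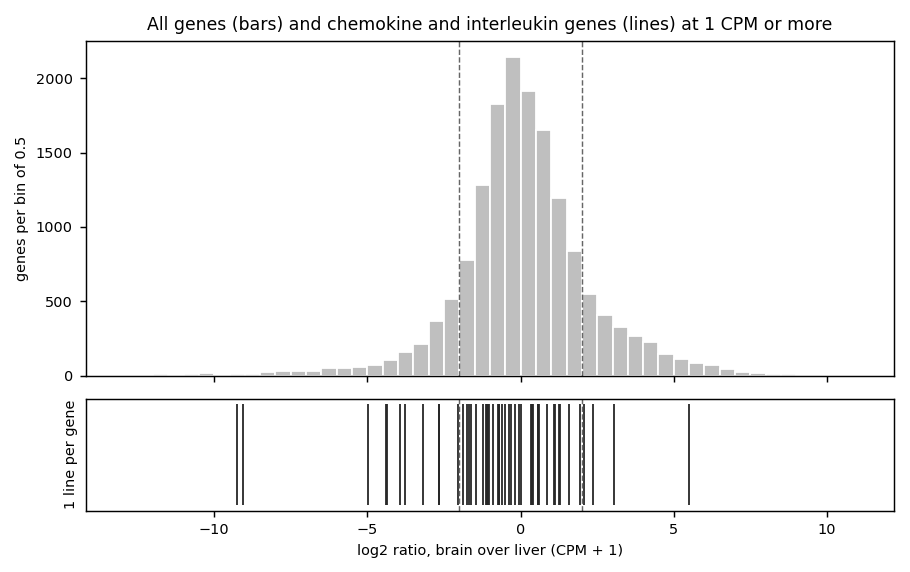
Bars show the number of genes per bin of 0.5 in the log2 ratio, brain over liver, for all 15706 genes at 1 CPM or more, and each line below is 1 of the 50 chemokine and interleukin genes at that level. Dashed lines mark 4-fold (2 and -2): 4 genes lie at or beyond it on the brain side and 11 on the liver side, with 2 C-C ligands alone near -9.

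The genes called higher in brain were 2 IL1RAPL1-like rows, named after a receptor of synapses, the CSF1R ligand IL34 and the interleukin-17 relative IL17D. Those called higher in liver were the C-C ligands CCL3-like and CCL16, the receptor chains IL1R1, IL13RA1, IL22RA1, IL13RA2, IL4R, IL11RA and IL6R, the transcription factor NFIL3 and the alarmin IL33. The values nearest the 4-fold line were those of IL17D (2.05) inside and IL1RAPL2 (1.93) outside on the brain side. On the liver side they were IL33 (-2.05) inside and the caspase CASP1 (-1.87) outside. With plain library size IL6R (-1.82), NFIL3 (-1.61) and IL33 (-1.41) lay within 4-fold, while IL1RAPL2 (2.87) and the row for an IL17RE-like receptor (2.47) lay beyond it in brain.

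**Figure D2:**
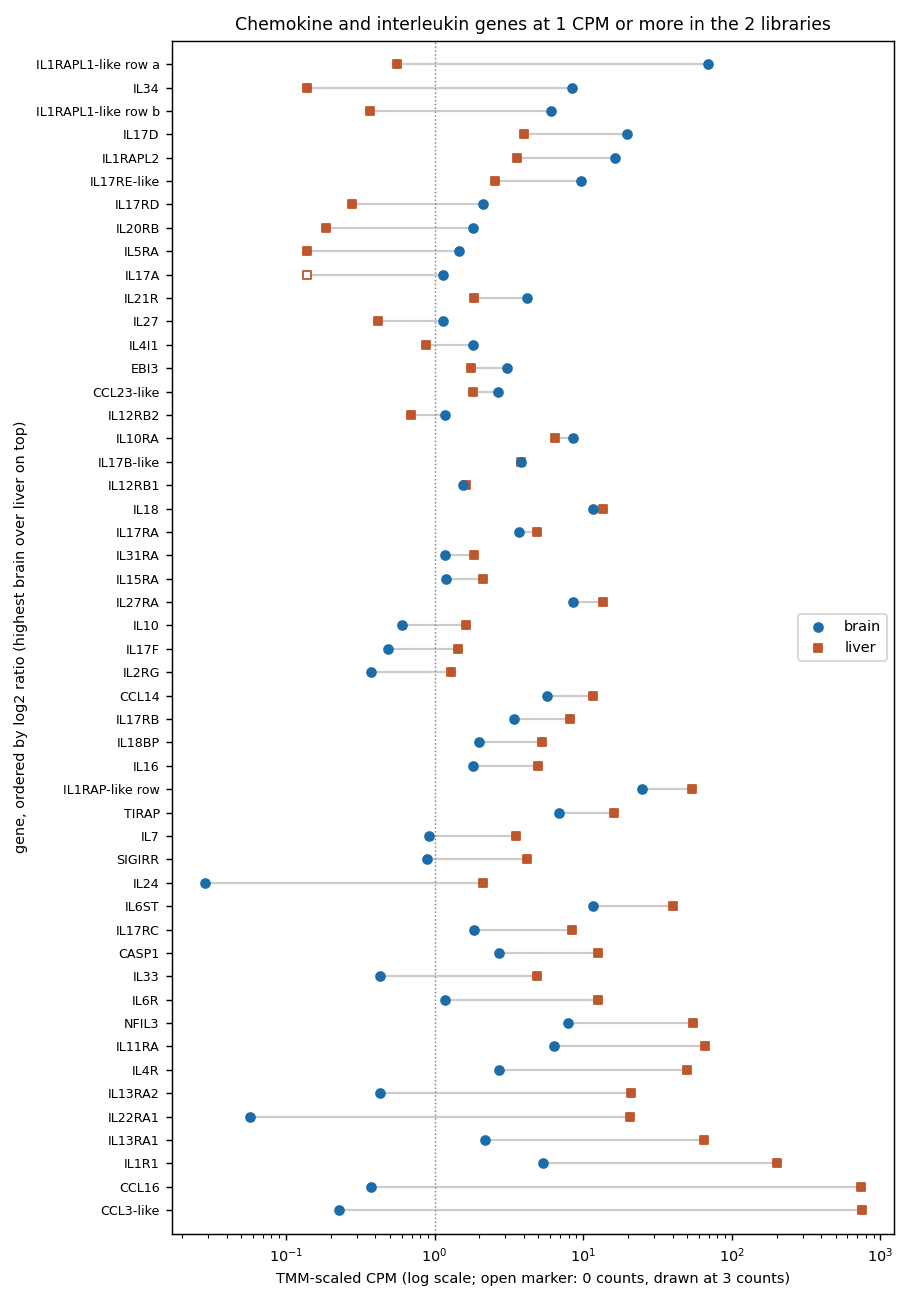
TMM-scaled CPM on a log axis for the 50 genes at 1 CPM or more, brain as circles and liver as squares, ordered by log2 ratio with the highest on top. An open square marks IL17A, with 0 counts in liver, drawn at the floor of 3 counts (0.139 CPM). CCL3-like and CCL16, at the bottom, are at 0.229 and 0.372 CPM in brain against 746 and 737 CPM in liver.

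A pair of C-C ligands had the lowest ratios of the whole set. CCL16, a ligand that human liver is known to make, had 13 counts in brain and 15907 in liver, or 0.372 against 737 CPM. It was 1980-fold higher in liver (95% interval 1158 to 3720), at a log2 ratio of -9.07. The row named a C-C motif chemokine 3-like protein, after the macrophage inflammatory protein CCL3, had 8 counts in brain and 16122 in liver, or 0.229 against 746 CPM. It was 3262-fold higher in liver (1655 to 7556), at -9.25. The CCL16 row took 0.0501% and the CCL3-like row 0.0508% of all liver counts (Wilson intervals 0.0494 to 0.0509 and 0.0500 to 0.0516). Without them the summed CPM of the remaining genes was 286 in brain and 748 in liver, and with them the sum was 287 in brain and 2231 in liver. In counts the remaining genes had 10004 in brain and 16154 in liver, of which IL1R1 took 4367 in liver. Their difference is thus smaller with plain library size.

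The other C-C ligands did not share this difference. CCL14, a ligand found in human plasma, had 201 counts in brain and 252 in liver, a log2 ratio of -0.91 that became 0.08 with plain library size. CCL23-like, named after a monocyte attractant, had 94 counts in brain and 39 in liver, a ratio of 0.39. CCL22, a ligand of CCR4 made by dendritic cells and macrophages, had 5 counts in brain and 3 in liver.

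The CCL16 and CCL3-like rows lie close together in the table, with CCL23-like and CCL14 between them. The CCL3-like row has a deposited length of 54313 bp, while the rows of CCL23-like, CCL14 and CCL16 have 4141, 4105 and 3377 bp. CCL3L1, the row before it, had 0 counts in brain and 4 in liver, and CCL4, a close relative of CCL3, had 3 and 13. The number of liver reads on the CCL3-like row was 1.01 times that on the CCL16 row. Which transcript the reads of the long CCL3-like row came from, and whether any are shared with CCL16, could not be told from counts per row. The CCL3-like identity is therefore that of the row alone. The few brain counts equal 0.0496% of the liver counts for CCL3-like (exact interval 0.0214 to 0.0978) and 0.0817% for CCL16 (0.0435 to 0.140). For albumin, a product of hepatocytes, that percentage was 0.0262. Hepatocyte genes differ in this respect: CPS1 had 49 counts in brain and 103570 in liver, and APOA1 8130 and 239262. The titles of both libraries carry the same lane and barcode label. The part of any carry-over between libraries in these brain counts was not tested.

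**Figure D3:**
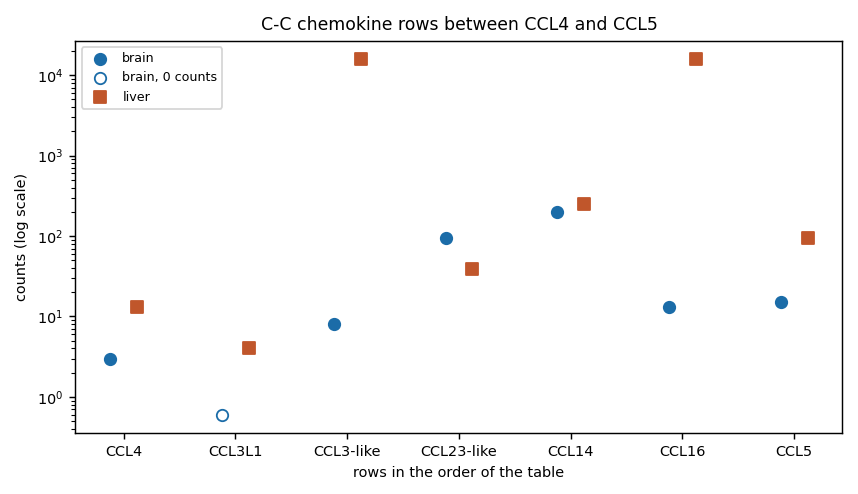
Counts on a log axis for the C-C chemokine rows between CCL4 and CCL5 in the order of the table, brain as circles and liver as squares, with an open circle for 0 counts. CCL3-like (8 in brain, 16122 in liver) and CCL16 (13 and 15907) stand apart from CCL4, CCL3L1, CCL23-like, CCL14 and CCL5, none of which exceeds 252 counts in either library.

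The remaining chemokine members were barely detected. CXCL13, which draws B cells into follicles, had 6 counts in brain and 3 in liver. Its receptor CXCR5 had 12 and 2, and CXCR3, the receptor of interferon-induced ligands on T cells, had 3 and 4. CCR6 had 1 count in brain and 3 in liver, and a CCR3-like row had 3 and 2. None of these reached 1 CPM, and at so few counts their levels in brain and liver were not compared.

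Of the 27 interleukins, 13 reached 1 CPM, and 2 of these were called in brain and 1 in liver, beside 14.6% and 11.3% of all genes, with a median log2 ratio of -0.20. IL34, a ligand of the receptor CSF1R that neurons make and that maintains microglia in mice, had 295 counts in brain and 3 in liver, or 8.44 against 0.139 CPM. It was 60.8-fold higher in brain (20.6 to 296), at a log2 ratio of 3.05. Its receptor CSF1R had 73.8 CPM in brain against 61.0 CPM in liver, a log2 ratio of 0.27 that became 1.36 with plain library size. IL17D, a little studied relative of interleukin 17, had 688 counts in brain and 86 in liver, and was 4.94-fold higher in brain (3.95 to 6.26). IL33, an alarmin stored in nuclei of stromal and endothelial cells, had 15 counts in brain and 106 in liver. It was 11.4-fold higher in liver (6.63 to 21.2).

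Among the other interleukins at 1 CPM or more, some differed on few counts. IL17A, a T cell product, had 40 counts in brain and 0 in liver, which is at least 8.24-fold higher in brain against a floor of 3 counts in liver. Its log2 ratio of 1.10 stays within 4-fold because of the added 1 CPM. IL17F, its closest relative, had 17 counts in brain and 31 in liver (-0.71, and -0.21 with plain library size). The pair did not lie on the same side, though on few counts and by an amount that depends on the scaling. IL24, of the interleukin 10 family, had 1 count in brain and 46 in liver, and its ratio of 74.4 had a wide interval (12.7 to 3004). IL27 had 40 counts in brain and 9 in liver, or 2.75-fold higher in brain (1.31 to 6.44), and its partner subunit EBI3 had 107 and 38, or 1.74-fold (1.19 to 2.59).

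IL18, which is matured by CASP1 and drives interferon gamma, was well measured in both tissues, with 409 counts in brain and 293 in liver. The interval of its fold, brain over liver, was 0.741 to 1.01 and held 1. Its log2 ratio of -0.20 changed sign with plain library size (0.83). IL17B-like had 133 counts in brain and 82 in liver, at 0.00. IL7, a growth factor of lymphocytes, had 32 and 76 counts (-1.24), IL16, an attractant of cells with CD4, had 63 and 107 (-1.09), and IL10, which restrains macrophages, had 21 and 35 (-0.71). These log2 ratios stayed below 0 with plain library size, at -0.53, -0.26 and -0.16.

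The remaining 14 interleukins were under 1 CPM. IL1A had 14 counts in brain and 2 in liver. IL1B had 4 and 7, and a further interleukin-1 beta row had 2 and 2. IL15 had 0 counts in brain and 9 in liver, while the IL12 subunits IL12A and IL12B had 8 and 5 in brain and 0 in liver. The row of IL-5 had 10 counts in brain and 16 in liver. IL9, IL13, IL19, IL21, IL25 and the IL26 rows had at most 3 counts in either library. The genes IL2, IL4, IL6 and CXCL8 were not analysed here.

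**Figure D4:**
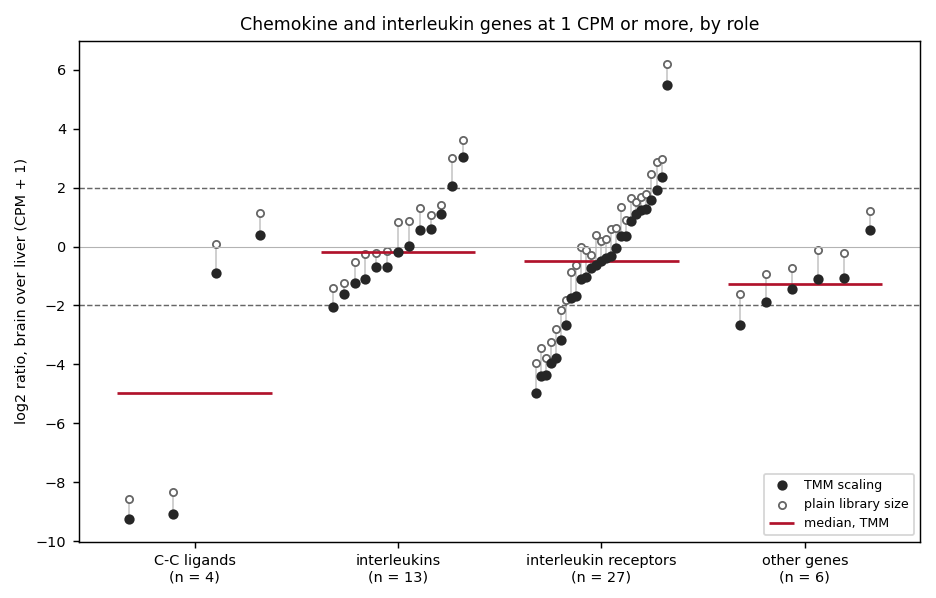
Log2 ratios, brain over liver, of the 50 genes by role, with TMM scaling as filled and plain library size as open points, medians with TMM as red lines and 4-fold as dashed lines. The 4 C-C ligands at 1 CPM or more form 2 separate pairs, the 27 interleukin receptors spread from -4.99 (IL1R1) to 5.49 (an IL1RAPL1-like row), and the open points lie above the filled ones throughout.

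Of the 43 interleukin receptors, 27 reached 1 CPM, with 2 called in brain and 7 in liver. The liver calls were 25.9% of the 27, where 11.3% of all genes were called in liver and 14.6% in brain. Their median log2 ratio was -0.51, and the families of receptors went different ways.

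Of 5 rows grouped here as interleukin 1 receptors at 1 CPM or more, IL1R1 was called in liver and 2 IL1RAPL1-like rows in brain. SIGIRR, whose product names a receptor domain of this kind, was placed with the other genes below. Of all genes, 11.3% were called in liver and 14.6% in brain. IL1R1, the receptor that transmits interleukin 1 alpha and beta, had 189 counts in brain and 4367 in liver, or 5.41 against 202 CPM. This is 37.4-fold higher in liver (32.3 to 43.5), at -4.99 on the log2 scale. The row of an IL1RAP-like accessory chain, the partner that IL1R1 needs to signal, had 868 counts in brain and 1172 in liver, or 2.19-fold higher in liver (1.9999 to 2.39). The log2 ratio of -1.10 became -0.02 with plain library size. The decoy IL1R2 had 3 counts in brain and 7 in liver, and IL1RL1, the receptor of IL33, had 6 in each. The receptor of IL18 (IL-18RA, 1 and 2 counts) and the IL1RL2-like row (5 and 2) were likewise under 1 CPM.

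IL1RAPL1 organises excitatory synapses by binding receptor phosphatases on axons, and its loss causes intellectual disability in humans. The table has 3 rows with an IL1RAPL1-like product, and the gene number of 1 of them carries the symbol IL1RAPL1 in RefSeq. Whether these rows are parts of 1 gene was not tested, and the counts of calls take them apart. The longest row had 2409 counts in brain and 12 in liver, or 68.9 against 0.556 CPM, and was 124-fold higher in brain (70.9 to 240). The row with the RefSeq symbol had 212 counts in brain and 8 in liver, or 16.4-fold higher in brain (8.16 to 38.4), and the shortest had 11 and 0. Summed, these rows had 2632 counts in brain and 20 in liver, an 81.3-fold difference (52.5 to 133) and a log2 ratio of 5.31. IL1RAPL2, a close relative of IL1RAPL1, had 573 counts in brain and 77 in liver, 4.598-fold higher in brain (3.62 to 5.91), just within 4-fold on the log2 scale used for calls.

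The receptor chains of interleukin 4 and interleukin 13 were all higher in liver. IL4R, which binds interleukin 4, had 95 counts in brain and 1075 in liver, an 18.3-fold difference (14.8 to 22.8). IL13RA1, which joins IL4R to form the receptor found on tissue cells, had 76 counts in brain and 1408 in liver, or 30.0-fold higher in liver (23.8 to 38.3). IL13RA2, a decoy that holds interleukin 13, had 15 counts in brain and 453 in liver, or 48.9-fold higher in liver (29.3 to 88.1). The ligand IL13 had 2 counts in brain and 1 in liver. STAT6, the transcription factor these receptors activate, had only 2 counts in brain and 9 in liver.

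Among the other chains of this family, used by lymphocytes, 3 reached 1 CPM and none was called. The shares of all genes called were 14.6% in brain and 11.3% in liver. IL2RG, the chain shared by several of these receptors, had 13 counts in brain and 28 in liver (-0.74), or 3.49-fold higher in liver (1.75 to 7.33). IL15RA had 42 and 46 (-0.51), and 0.17 with plain library size. IL21R had 146 counts in brain and 40 in liver and was 2.26-fold higher in brain (1.58 to 3.29). IL2RA had 8 and 1, IL2RB 1 and 10, and IL9R 21 and 5, all under 1 CPM. In the related interleukin 5 family, IL5RA, the receptor of interleukin 5 on eosinophils, had 51 counts in brain and 3 in liver, or 10.5-fold higher in brain (3.40 to 52.6), at a log2 ratio of 1.11.

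The receptor chains through which interleukin 6 and interleukin 11 act were higher in liver. IL6R had 41 counts in brain and 273 in liver, a 10.8-fold difference (7.74 to 15.4). IL11RA had 223 counts in brain and 1426 in liver, or 10.35-fold higher in liver (8.98 to 11.97). IL6ST, which encodes gp130, the signalling chain that both share, had 410 and 866 counts, or 3.42-fold higher in liver (3.04 to 3.85), which is within 4-fold at -1.69 and lies at -0.63 with plain library size. Several relatives of these chains differed less: IL27RA had 299 counts in brain and 295 in liver (-0.62), IL31RA 41 and 40 (-0.39), and IL12RB1 54 and 35 (-0.04), all above 0 with plain library size. IL12RB2 had 41 and 15 (0.36), and IL23RA, under 1 CPM, had 17 and 1.

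In the interleukin 10 family, 1 of 3 receptor chains at 1 CPM or more was called, beside 14.6% of all genes in brain and 11.3% in liver. IL22RA1, the chain that lets epithelial cells and hepatocytes respond to interleukin 22, had 2 counts in brain and 446 in liver. The ratio was 361 (99.3 to 2989), at a log2 ratio of -4.36. IL20RB, a chain for interleukins 19, 20 and 24, went the other way with 63 counts in brain and 4 in liver, 9.73-fold higher in brain (3.62 to 36.8). IL10RA was 1.32-fold higher in brain (1.08 to 1.62), with 299 and 140 counts. The common chain IL10RB, a row of only 284 bp, had 3 and 8. The 3 rows listed as interleukin-28 receptors, of which 1 carries the RefSeq symbol of the interferon lambda receptor IFNLR1, were each under 1 CPM. Their summed counts were 7 in brain and 51 in liver, or 11.8-fold higher in liver (5.33 to 30.8). IL20RA had 16 and 9 counts, and the soluble receptor IL22RA2 had 4 and 1.

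None of the 5 interleukin 17 receptors at 1 CPM or more was called, beside 14.6% of all genes in brain and 11.3% in liver. IL17RA, the chain shared by the family, had 130 counts in brain and 105 in liver, with a log2 ratio of -0.31 that became 0.58 with plain library size. IL17RC, its partner for IL17A and IL17F, had 64 counts in brain and 182 in liver and was 4.602-fold higher in liver (3.44 to 6.22). IL17RB, the receptor of IL25, had 120 and 176 (-1.05). On the brain side, IL17RD, also known as an inhibitor of fibroblast growth factor signalling, had 74 counts in brain and 6 in liver, or 7.62-fold higher in brain (3.34 to 21.4). The IL17RE-like row had 336 counts in brain and 55 in liver, or 3.77-fold higher in brain (2.83 to 5.12), and was called in brain with plain library size. Its gene number belongs to JAGN1 in the RefSeq table, while a separate row carries the product of JAGN1 here, so its identity rests on the product column. The row of IL17REL had 1 and 2 counts.

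Of the 7 other genes whose product mentions an interleukin, 6 reached 1 CPM and 1 was called, in liver. Of all genes, 14.6% were called in brain and 11.3% in liver. NFIL3, a transcription factor that represses clock genes, had 275 counts in brain and 1185 in liver, or 6.97-fold higher in liver (6.11 to 7.98). CASP1, the protease that matures IL1B and IL18, had 95 counts in brain and 272 in liver, or 4.63-fold higher in liver (3.66 to 5.92). Inhibitors and an adaptor of the same branch also had ratios below 0 with both scalings. SIGIRR, which dampens this signalling, had 31 and 90 counts (-1.45), the soluble trap IL18BP 70 and 114 (-1.06), and the adaptor TIRAP 240 and 346 (-1.11). IL4I1, an amino acid oxidase of myeloid cells, had 63 counts in brain and 19 in liver (0.58).

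The pseudocount of 1 CPM holds several scarce genes within the 4-fold line. By the ratio of CPM alone, 4-fold was also reached by 5 genes in brain (IL17A, IL5RA, IL20RB, IL17RD and IL1RAPL2) and 4 in liver (CASP1, IL17RC, IL24 and SIGIRR). The share of all genes past 4-fold by that measure is not given here, so these numbers describe the single genes only. With TMM, counting error alone left 5 of the 50 genes with an interval of the fold that held 1, while 15 lay wholly on the brain side and 29 on the liver side. IL17A, without counts in liver, has no interval and is in none of these numbers. Plain library size moves the log2 of every such fold by 1.11 towards brain, and takes the fold of 7 genes from the liver side to the brain side. The same split over all genes is not given here, so it does not show a lean of the set. The 37 genes under 1 CPM had 188 counts in brain and 172 in liver in all, with at most 21 in either library for any gene.

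Many chemokine genes carry another wording in the product column and fall outside the rule. All 38 such rows were taken, a choice made after the product wording was seen, and 19 reached 1 CPM, with 2 called in brain and 4 in liver, beside 14.6% and 11.3% of all genes. CXCL14, a chemokine of interneurons and epithelia, was 27.9-fold higher in brain (24.1 to 32.6), at 234 against 8.38 CPM. DARC, the chemokine-binding Duffy receptor, had 612 counts in brain and 7 in liver. CXCL12, the ligand of CXCR4, was 8.13-fold higher in liver (7.48 to 8.85), with 661 counts in brain and 3321 in liver, and lay within 4-fold with plain library size (-1.88). The interferon-induced ligands CXCL9 and CXCL10 had 14 and 23 counts in brain against 555 and 151 in liver. CCL21, which guides cells with CCR7, had 7 counts in brain and 118 in liver. Their log2 ratios were -4.25, -2.27 and -2.43, and -3.54, -1.55 and -1.87 with plain library size, so that CXCL9 alone of the 4 liver calls stayed past 4-fold there. CX3CL1, the neuronal ligand of microglia, comes from a pathway list and had 25.4 CPM in brain against 0.370 CPM in liver.

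The next counts are over small lists and stand beside the 14.6% in brain and 11.3% in liver of all genes. Among the JAK and STAT genes 0 were called in brain. STAT2 (-2.92), which acts in interferon signalling, and STAT3 (-2.60), the factor that interleukin 6 activates, were called in liver, and both were within 4-fold with plain library size (-1.85 and -1.51). Of 7 SOCS feedback inhibitors, SOCS1 (-2.20) was called in liver, with 8 counts in brain and 100 in liver, and lay at -1.64 with plain library size, while SOCS7 (1.16) passed 4-fold in brain with that scaling (2.03). SOCS3, with 1 count in brain and 32 in liver, stayed within 4-fold at -1.27. Of the 7 ratios with TMM, 2 lay above 0 and 5 below. Of 11 genes of interleukin 1 and Toll signalling, 0 were called in either tissue (median -0.32), with 4 ratios above 0 and 7 below. The added 1 CPM holds scarce genes of these lists within 4-fold too. MYD88 lay at -1.69 with 7 counts in brain and 62 in liver, and was 14.3-fold higher in liver by CPM alone (6.56 to 37.1). Of 11 NF-kB genes, the kinase CHUK (-3.96) was called in liver (median -0.78). Of 4 genes of the gp130 family, IL6ST among them, at 1 CPM or more, the oncostatin M receptor OSMR (-2.83) was called in liver (median -1.02), and lay at -1.83 with plain library size, while CNTFR (1.40), a receptor of ciliary neurotrophic factor, passed 4-fold in brain with that scaling (2.45). Of 3 inflammasome genes, CASP1 among them, 0 were called (median -1.87). Of 8 plasma protein genes that interleukin 6 raises in hepatocytes, 7 were called in liver (median -8.69).

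Markers of several cell types also differed between the libraries, and their part in the values above was not tested. Neuron, astrocyte and oligodendrocyte markers were called in brain for 4 of 4, 3 of 3 and 3 of 3 genes with a row. Hepatocyte, sinusoidal endothelium and macrophage or Kupffer cell markers were called in liver for 5 of 5, 4 of 4 and 6 of 6. The macrophage and Kupffer list summed to 18.5 CPM in brain against 1891 CPM in liver. The microglia list summed to 141 CPM in brain against 139 CPM in liver, from 4915 counts in brain and 3012 in liver. With plain library size its sum is thus higher in brain. Of its 6 genes, P2RY12 and TREM2 were called in brain, with TREM2 at 0 counts in liver. The other 4 lay within 4-fold: CSF1R (0.27), TMEM119 (0.10), CX3CR1 (0.01) and AIF1 (-1.22). The neutrophil list summed to 5.46 CPM in brain against 130 CPM in liver, with 3 of 5 called in liver. Lymphocyte markers were scarce: the T cell list summed to 26 counts in brain and 158 in liver, the B and plasma cell list to 119 and 61, and the NK cell list to 74 and 71, with 0 called in these lists.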

How the data were processed

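The libraries are RNA sequencing libraries of Rongchang pig brain and liver, extracted with RNAiso Plus, per the labels. The submitters' processing notes name TopHat and the build Sscrofa10.2 (susScr3). With the version, counting program, strand setting and gene models not given in the sources used here, reads of overlapping genes or near-identical copies may be shared. The deposited values are raw counts per row, read as such because they are whole numbers with different totals. The deposited gene length was read as a genomic span in bp.

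The table has 21817 rows. Rows of 1 name were summed, as 151 names had more than 1. Of 40 members with a LOC name, 29 took a symbol by gene number from a RefSeq table of Sscrofa11.1, used for names alone, and 11 are called by their product. Hyphens and spaces in product names were treated alike when rows were left out, and a letter-for-letter reading is an alternative. Some results of the lists are not reported here. TMM factors came from edgeR 4.0.16 under R 4.3.3, which ran no test, and intervals from scipy 1.17.1. A library at 0 counts was set to a floor of 3 counts. The computation of calls and intervals, not any difference between the tissues, was tested on simulated data. All members at 1 CPM or more are described with both counts. The members and lists were chosen with earlier results of these data known. The other settings are in the closing section.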

Additional observations from a re-analysis of the deposited data

How the results depend on the processing

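Brain calls numbered 4 and liver calls 11, with a median log2 ratio of -0.71. With plain library size there were 6 and 8 calls (median 0.13). With median-of-ratios scaling the median was -0.72, and with TMM without the 50 highest genes -0.91. A pseudocount of 0.1 gave 9 brain calls and a median of -1.07, and one of 5 gave 1 and -0.24. Shares of all genes with these pseudocounts are not given here. With no filter the median was -0.13, and with a filter at 5 CPM -1.11. At 2-fold 10 genes were called in brain and 22 in liver, where the background is 27.6% and 24.4%, and at 8-fold 2 were called in brain. In settings chosen after seeing the data, library size without the 50 highest genes gave a median of -0.56, and the letter-for-letter member rule -0.67. The other counts stayed within 1.5 times. No called gene changed sign under any scaling, pseudocount or row choice run. With 7 genes at 1 CPM or more (CCL14, IL27RA, IL15RA, IL31RA, IL17RA, IL18 and IL12RB1), the log2 ratio was below 0 with TMM and above 0 with plain library size. No paired analysis was possible because there is 1 library per tissue. Depth limits the 28 genes with at most 10 counts in both libraries.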
